A study of Mus musculus with 2 samples.

Results

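Expressed solute carrier transcripts were described in eosinophils, granulocytes of allergic and antiparasitic responses that display CCR3, a chemokine receptor, and SiglecF, a sialic acid-binding lectin. The cells came from bone marrow of untreated mice of the strain C57BL6J and were sorted on both surface proteins. Marrow was pooled, and 2 independent sorts, called sort 1 and sort 2 after the numbers in their titles, gave 1 poly(A) RNA library each. Both libraries belong to 1 group, so no comparison between conditions exists. The sources used here do not give the number, age or sex of the pooled mice. The p-values below measure only how far 2 libraries differ. Such differences may be technical or lie in the pooled mice, and these cannot be told apart. Entries were selected on their values: the symbol had to begin with Slc, a family number, the letter a and a digit, and the RPKM, summed over the rows of a gene, had to be at least 1 in both sorts. RPKM is a read count divided by transcript length and by sequencing depth, so that levels can be compared between genes. Of 23343 genes in the tables, 341 had such a symbol, and 83 of these, or 24.3%, passed the minimum. The same minimum was passed by 30.2% of all genes, and nothing is read from either share because the values made the choice.

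Solute carriers are membrane proteins that move small molecules across the plasma membrane, or across the membranes of mitochondria, lysosomes and the Golgi, either down a gradient or coupled to the movement of an ion. The families are numbered by sequence relationship, and a number largely fixes the class of substrate. Family 2 holds facilitative glucose transporters and family 7 amino acid transporters, among them the light chains of exchangers. Family 25 holds the carriers of the inner mitochondrial membrane and family 35 the nucleotide sugar carriers of the Golgi and endoplasmic reticulum. In blood cells solute carriers are known for nutrient uptake, for the handling of iron, zinc and copper, and for control of cell volume and pH.

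Not every selected entry is a transporter. A single transporter symbol was carried by 78 entries, and 5 others also met the rule. Slc9a3r1 is a scaffold protein (NHERF1) that binds the tail of a sodium/proton exchanger, Slc4a1ap is an adaptor named after the anion exchanger, Slc7a6os lies on the strand opposite to Slc7a6, and Slc2a4rg-ps is a pseudogene of a regulator of Slc2a4. The fifth, Slc10a3,Ubl4a, is a joint entry of 2 genes whose reads the tables do not separate, and its exons share 24.8% of their bases with a further entry, Ubl4. Removing these left 78 genes in the same 32 families. Conversely, transporter genes with another letter after the family number were not taken by the rule and are described near the end.

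The sorted cells carried the defining markers of eosinophils. All 11 genes of that list reached an RPKM of 1 in both sorts, with a summed level of 3489 RPKM in sort 1 and 4327 RPKM in sort 2. Neutrophil markers were abundant too, with 13 of 13 measured genes at 1 RPKM or more and sums of 4467 and 4231 RPKM. Macrophage markers had 7 of 12 genes at that level and sums of 35.3 and 23.6 RPKM, basophil and mast cell markers 6 of 10 and sums of 31.2 and 33.8 RPKM, and erythroid markers 1 of 16 and sums of 5.78 and 8.67 RPKM. Of the 13 neutrophil markers, 8 had the higher RPKM in sort 1 and 5 in sort 2. The part of neutrophils in the levels of the selected entries was not tested. The tables held 71296 reads of the selected entries in sort 1 and 65201 in sort 2, out of 10087743 and 9264150 reads in all. These are 0.707% (95% Wilson interval 0.702 to 0.712) and 0.704% (0.698 to 0.709) of the reads, intervals that cover counting error only. The libraries stood apart in 2 abundant RNAs. The ribosomal precursor Rn45s had 914623 reads in sort 1 and 89209 in sort 2, and Xist had 47487 and 5. Both RNAs are counted in the totals above, so the closeness of the 2 shares is not a result about the entries. Xist is made from the inactive X chromosome of female cells. The sex of the pooled mice, not given in the sources, cannot be told apart from other differences between the sorts.

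Solute carrier levels were modest, with a few high genes above many low ones. The median was 3.61 RPKM in sort 1 and 3.05 RPKM in sort 2, beside 4.07 and 3.97 RPKM over the 7048 genes of the tables that passed the same minimum, called expressed genes below. Both sorts gave 10 RPKM or more for 10 entries, or 12.05%, beside 18.4% of those 7048 genes. The count was 23 from 5 RPKM upward and 60 from 2 RPKM upward, while 23 stayed below 2 RPKM in at least 1 sort. The 5 entries of highest mean held 30.3% of the summed RPKM in sort 1 and 25.4% in sort 2. The highest, Slc6a6, was gene number 335 in the tables by mean RPKM.

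The minimum cut through a continuum of low values. Just inside it were Slc7a1, the arginine transporter CAT1, with 1.04 RPKM in sort 1 and 1.08 RPKM in sort 2, and Slc25a14, a mitochondrial carrier, with 1.09 RPKM in sort 1 and 1.23 RPKM in sort 2. The next were Slc41a1, a magnesium transporter, with 1.28 RPKM in sort 1 and 1.24 RPKM in sort 2, the sodium bicarbonate cotransporter Slc4a7 with 1.28 RPKM in sort 1 and 1.303 RPKM in sort 2, and Slc25a39 with 1.56 RPKM in sort 1 and 1.31 RPKM in sort 2. Just outside were Slc16a10, an aromatic amino acid transporter, with 0.983 RPKM in sort 1 and 1.16 RPKM in sort 2, the peptide transporter Slc15a2 with 0.961 RPKM in sort 1 and 1.18 RPKM in sort 2, the organic cation transporter Slc22a3 with 1.21 RPKM in sort 1 and 0.936 RPKM in sort 2, the zinc transporter Slc30a6 with 0.959 RPKM in sort 1 and 0.911 RPKM in sort 2 and Slc25a18, a mitochondrial glutamate carrier, with 0.849 RPKM in sort 1 and 0.955 RPKM in sort 2. Of the 258 entries that were not selected, 9 reached 1 RPKM in sort 1 alone and 3 in sort 2 alone. A further 81 had no read in either library.

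**Figure D1:**
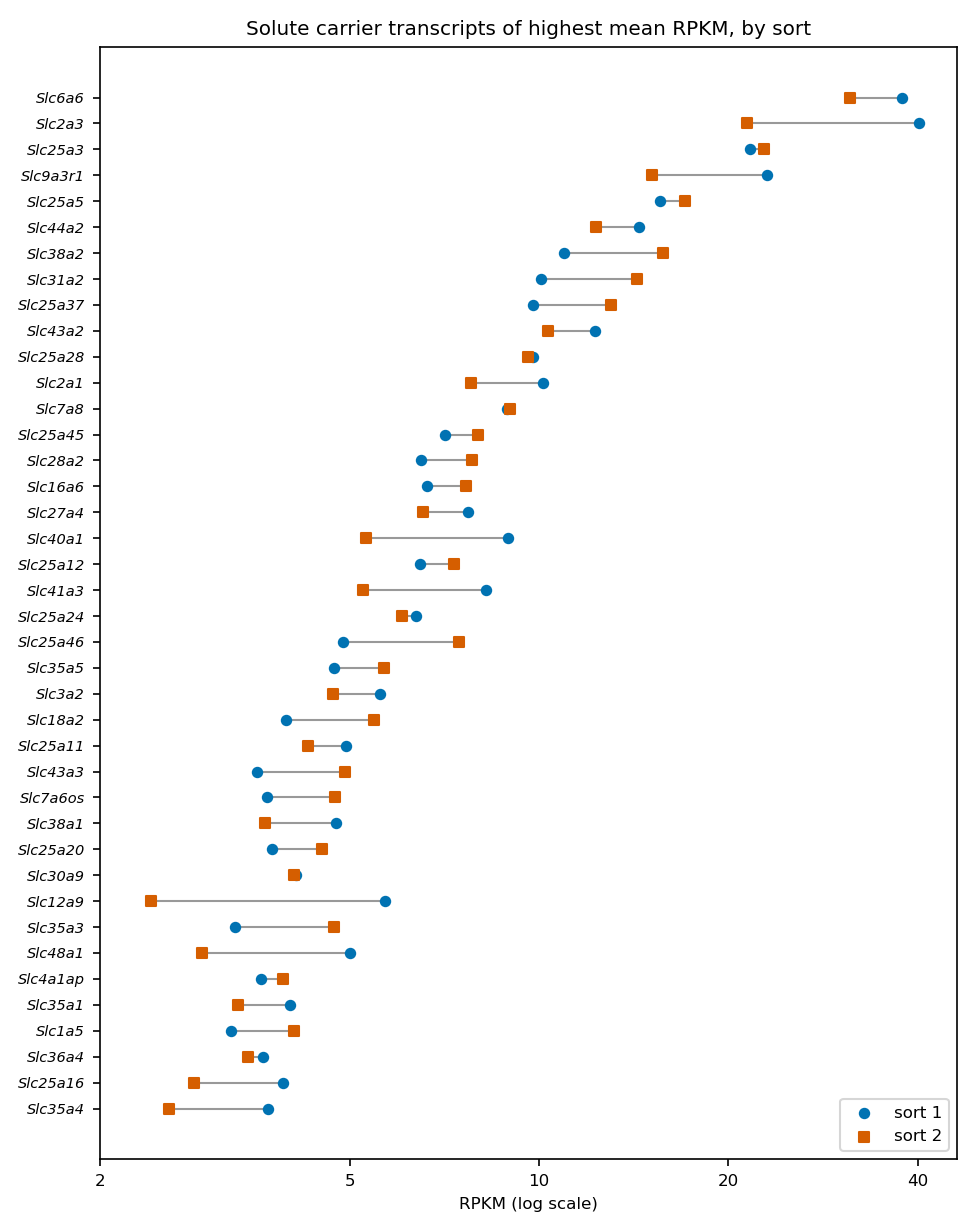
RPKM (log axis) of the 40 entries with the highest mean among those reported by name, 1 line per gene, with a circle for sort 1 and a square for sort 2. Slc6a6 and Slc2a3 lie at the top, the line of Slc2a3 spans 21.4 to 40.1 RPKM, and the longest line is that of Slc12a9, at 5.68 RPKM in sort 1 and 2.41 RPKM in sort 2.

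The families grouped here as amino acid transporters had 15 selected entries of 64 in the tables and the highest mean level of all selected entries. The 15 include the opposite-strand gene Slc7a6os, and some genes of these families carry other solutes. Slc6a6, the sodium-dependent transporter of taurine, lies on chromosome 6 from 91684067 to 91759063 (mm10, as are all coordinates of the tables) and had 37.8 RPKM in sort 1 and 31.2 RPKM in sort 2. It was the 1 selected gene among 19 of family 6, which also holds the transporters of neurotransmitters, and 10 of the others had no read. Slc38a2, the SNAT2 transporter of small neutral amino acids, had 10.9 RPKM in sort 1 and 15.7 RPKM in sort 2, a log2 ratio of sort 1 to sort 2 of -0.59. Slc43a2, the LAT4 transporter of large neutral amino acids, had 12.3 RPKM in sort 1 and 10.3 RPKM in sort 2.

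Several amino acid exchangers of family 7 work as pairs of a light chain and the heavy chain Slc3a2, the CD98 antigen. Slc3a2 had 5.59 RPKM in sort 1 and 4.69 RPKM in sort 2. Among the light chains Slc7a8, or LAT2, had 8.88 RPKM in sort 1 and 8.99 RPKM in sort 2, nearly the same level in both libraries, and Slc7a11, the cystine/glutamate exchanger xCT, had 3.07 RPKM in sort 1 and 2.58 RPKM in sort 2. The light chain Slc7a5, or LAT1, did not reach the minimum in sort 2 and had 1.31 RPKM in sort 1 and 0.743 RPKM in sort 2. The glutamine transporters Slc38a1 and Slc1a5 had mean levels of 4.21 ± 0.767 and 3.66 ± 0.6002 RPKM (SD, n = 2, here and below), and the lysosomal or plasma membrane proton-coupled transporters Slc36a4 and Slc36a1 had 3.54 ± 0.133 and 2.53 ± 0.5998 RPKM. An SD from 2 libraries is itself imprecise. Slc43a3, which moves purine nucleobases in human cells, averaged 4.23 ± 0.951 RPKM, the opposite-strand gene Slc7a6os 4.21 ± 0.735, Slc38a10 3.08 ± 1.06, the lysosomal arginine-responsive Slc38a9 1.55 ± 0.0635 and Slc7a1 1.06 ± 0.0248 RPKM.

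The families grouped here as sugar transporters, not all of whose genes carry sugars, had 4 selected entries of 35. Slc2a3, the high-affinity glucose transporter GLUT3, lies on chromosome 6 from 122727809 to 122742745 and had 40.1 RPKM in sort 1 and 21.4 RPKM in sort 2. Slc2a1, the widely expressed GLUT1, had 10.1 RPKM in sort 1 and 7.79 RPKM in sort 2. The level of Slc2a3 was therefore 3.96 times that of Slc2a1 in sort 1 and 2.75 times in sort 2. Which of Slc6a6 and Slc2a3 came first differed between the sorts, since Slc2a3 was the higher in sort 1 and Slc6a6 in sort 2. Slc50a1, a SWEET-type sugar transporter, had 2.51 RPKM in sort 1 and 3.28 RPKM in sort 2, and the pseudogene entry Slc2a4rg-ps averaged 1.99 ± 0.512 RPKM. No gene of family 5, which includes the sodium-coupled glucose transporters, was selected among 13. None of the 4 sugar phosphate exchangers of family 37 was selected. Of these, Slc37a4 had 0.924 RPKM in sort 1 and 0.803 RPKM in sort 2.

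Monocarboxylate transporters carry lactate, pyruvate and ketone bodies, and 4 of 13 were selected. Slc16a6, or MCT7, led with 6.62 RPKM in sort 1 and 7.65 RPKM in sort 2. Slc16a3, the lactate exporter MCT4, had 3.98 RPKM in sort 1 and 1.99 RPKM in sort 2, and Slc16a7, or MCT2, had 1.95 RPKM in sort 1 and 2.57 RPKM in sort 2, so that Slc16a3 was the higher of the pair in sort 1 and Slc16a7 in sort 2. Slc16a14 averaged 1.63 ± 0.0712 RPKM. Slc16a1, the widely expressed lactate transporter MCT1, stayed below the minimum with 0.541 RPKM in sort 1 and 0.434 RPKM in sort 2. The glycoproteins Bsg and Emb, which bring monocarboxylate transporters to the cell surface, had 7.25 ± 1.23 and 6.98 ± 0.705 RPKM.

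Mitochondrial carriers were the largest group, with 21 of 47 genes of family 25 selected and 23.8% of the summed RPKM of all selected entries in sort 1 and 27.4% in sort 2. Slc25a3, which imports phosphate for ATP synthesis, lies on chromosome 10 from 91116578 to 91123963 and had 21.7 RPKM in sort 1 and 22.8 RPKM in sort 2. Of the ADP/ATP exchangers, Slc25a5 had 15.6 RPKM in sort 1 and 17.1 RPKM in sort 2 and Slc25a4, the isoform of heart and muscle, had 2.48 RPKM in sort 1 and 2.85 RPKM in sort 2. The level of Slc25a5 was 6.29 times that of Slc25a4 in sort 1 and 5.99 times in sort 2. These 2 genes are close paralogs, so reads could be shared between them and the values are uncertain to that extent.

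Mitoferrins bring iron into mitochondria for haem and iron-sulphur clusters. Slc25a37, mitoferrin 1, known for its part in red cell haem synthesis, had 9.78 RPKM in sort 1 and 13.03 RPKM in sort 2, and Slc25a28, mitoferrin 2, had 9.76 RPKM in sort 1 and 9.61 RPKM in sort 2. Slc25a37 stood at the level of Slc25a28 in sort 1 and above it in sort 2, by a ratio of 1.36. The erythroid markers Hbb-b1 and Alas2 had mean levels of 0.899 ± 0.164 and 0.266 ± 0.1295 RPKM, and the 16 measured genes of their list summed to 5.78 RPKM in sort 1 and 8.67 RPKM in sort 2. Of these, 4 had the higher RPKM in sort 1 and 12 in sort 2. Only Tfrc reached the minimum in both sorts, with 1.72 RPKM in sort 1 and 2.48 RPKM in sort 2. The other directions rest on low values, and Hba-a1 and Hba-a2 had the same 14 reads in sort 1 and 32 in sort 2. The part of erythroid cells in the levels of Slc25a37 and Slc25a38 was not tested. Slc25a38, the glycine carrier of haem synthesis, had 3.69 RPKM in sort 1 and 2.23 RPKM in sort 2.

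Other mitochondrial carriers had mean levels between 1.16 and 7.54 RPKM. Slc25a45 led these with 7.09 RPKM in sort 1 and 7.99 RPKM in sort 2, and the aspartate/glutamate carrier Slc25a12 followed with 6.47 RPKM in sort 1 and 7.32 RPKM in sort 2. The ATP-magnesium/phosphate carrier Slc25a24 had 6.38 RPKM in sort 1 and 6.06 RPKM in sort 2, and Slc25a46, an outer membrane protein of mitochondrial shape, had 4.87 RPKM in sort 1 and 7.44 RPKM in sort 2. Carriers of the malate-aspartate shuttle and of fatty acid entry came next, the oxoglutarate carrier Slc25a11 with 4.61 ± 0.458 and the carnitine/acylcarnitine carrier Slc25a20 with 4.13 ± 0.5400 RPKM. Lower levels were found for Slc25a16 with 3.36 ± 0.767, the NAD carrier Slc25a51 with 2.95 ± 0.194, the peroxisomal Slc25a17 with 2.46 ± 0.633 and the branched-chain amino acid carrier Slc25a44 with 1.91 ± 0.0901 RPKM. The lowest were the pyrimidine nucleotide carrier Slc25a36 with 1.65 ± 0.128, Slc25a30 with 1.62 ± 0.0583, the citrate carrier Slc25a1 with 1.57 ± 0.221, Slc25a39, linked to glutathione import, with 1.44 ± 0.1700, and Slc25a14 with 1.16 ± 0.101 RPKM.

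**Figure D2:**
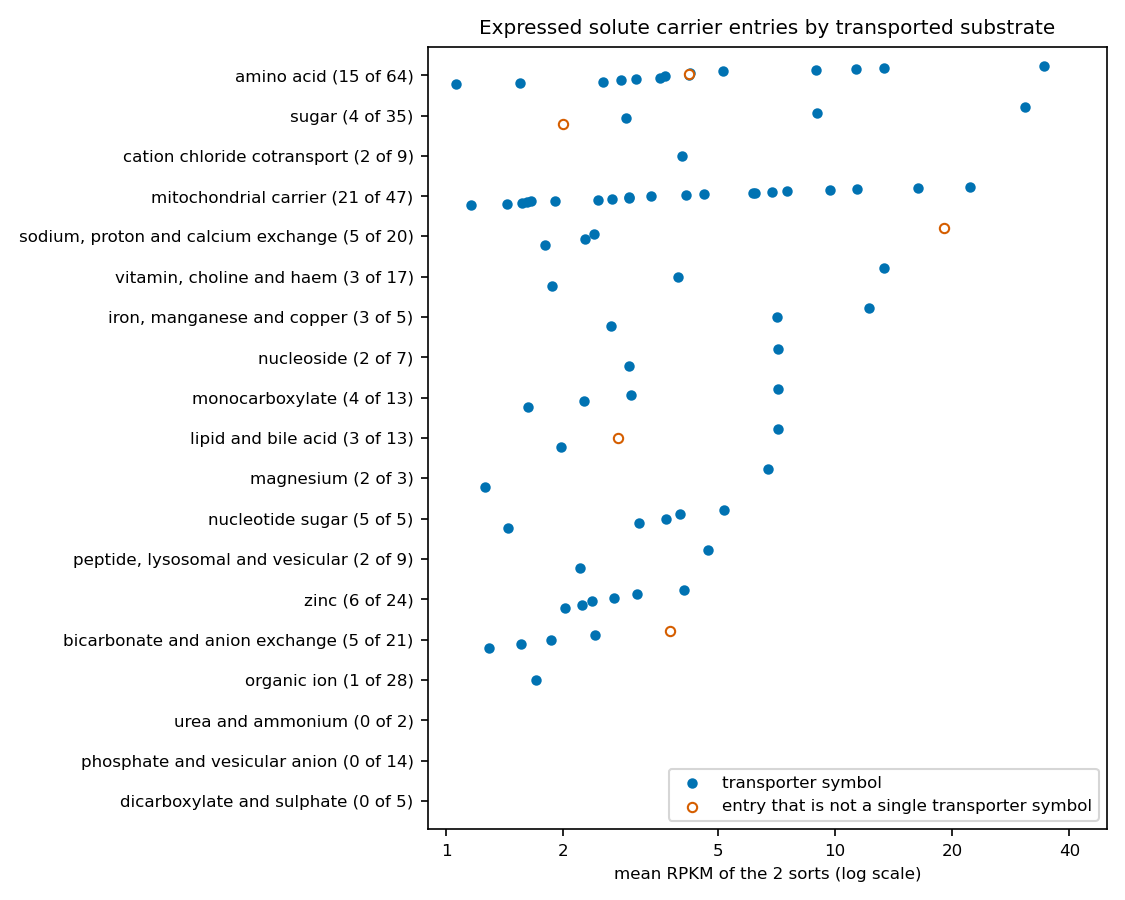
Mean RPKM of the 2 sorts (log axis) for 81 of the 83 selected entries, 1 point per entry, in rows by substrate class with the number selected of the number in the tables. Filled points are single transporter symbols and open points the 5 other entries, and small vertical offsets within a row only separate points. Mitochondrial carriers form the fullest row with 21 of 47, and the rows of phosphate and vesicular anion, dicarboxylate and urea carriers are empty.

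Cation-chloride cotransport and the exchange of sodium, protons and calcium were represented by 2 entries of 9 and 5 of 20. Slc12a9, of the first class, had 5.68 RPKM in sort 1 and 2.41 RPKM in sort 2. The scaffold Slc9a3r1 had 23.1 RPKM in sort 1 and 15.1 RPKM in sort 2, the highest level in the second class although it is no exchanger. Exchangers of endosomes and the Golgi were lower, Slc9a9 with 2.398 ± 0.349 and Slc9a8 with 2.27 ± 0.329 RPKM, as was the mitochondrial sodium/calcium exchanger Slc24a6 with 1.798 ± 0.354 RPKM.

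Anion exchange was represented by 5 entries of 21. The adaptor Slc4a1ap had 3.61 RPKM in sort 1 and 3.92 RPKM in sort 2 and Slc26a10 had 2.88 RPKM in sort 1 and 1.97 RPKM in sort 2. The sulphate transporter Slc26a2 averaged 1.86 ± 0.498 RPKM, the chloride/bicarbonate exchanger Slc4a2 1.56 ± 0.108 and Slc4a7 1.29 ± 0.0141 RPKM. Magnesium transporters of family 41 were Slc41a3, with 8.22 RPKM in sort 1 and 5.24 RPKM in sort 2, and Slc41a1, with 1.28 RPKM in sort 1 and 1.24 RPKM in sort 2. The proton channel Hvcn1, which offsets the charge of the oxidative burst, had 13.6 ± 2.13 RPKM.

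Iron, manganese and copper transport was represented by 3 entries of 5. Slc31a2, a copper transporter of intracellular vesicles, had 10.1 RPKM in sort 1 and 14.3 RPKM in sort 2, whereas its relative Slc31a1, the main copper importer of the plasma membrane, had 1.04 RPKM in sort 1 and 0.842 RPKM in sort 2 and was not selected. The ratio between them was 9.71 in sort 1 and 17.01 in sort 2. Slc40a1, ferroportin, the exporter of iron, had 8.92 RPKM in sort 1 and 5.304 RPKM in sort 2. Slc11a1, or NRAMP1, which removes divalent metals from phagosomes and of which C57BL/6 mice carry a loss-of-function allele, had 2.22 RPKM in sort 1 and 3.08 RPKM in sort 2, and its relative Slc11a2 had 0.746 RPKM in sort 1 and 0.756 RPKM in sort 2, below the minimum. Neutrophils, in which Slc11a1 is also known, had marker sums of 4467 RPKM in sort 1 and 4231 RPKM in sort 2, and their part in its level was not tested. Slc48a1, which carries haem out of phagolysosomes in macrophages, had 5.01 RPKM in sort 1 and 2.91 RPKM in sort 2.

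Slc40a1 and Slc48a1 both had higher levels in sort 1, as did the summed markers of macrophages, the cells that recycle red cell iron. The macrophage list, with 7 of 12 genes at 1 RPKM or more and 11 of 12 higher in sort 1 by RPKM, summed to 35.3 RPKM in sort 1 and 23.6 RPKM in sort 2, with Cd163 at 0.915 RPKM in sort 1 and 0.204 RPKM in sort 2, C1qb at 4.72 RPKM in sort 1 and 2.09 RPKM in sort 2, Hmox1 at 9.59 RPKM in sort 1 and 6.42 RPKM in sort 2 and Vcam1 at 9.26 RPKM in sort 1 and 8.58 RPKM in sort 2. Their part in the levels of Slc40a1 and Slc48a1 was not tested. In bulk RNA, fewer cells of a type and less RNA per cell cannot be told apart. The ferritin subunits, which store iron, had higher levels, Fth1 with 92.4 RPKM in sort 1 and 82.97 RPKM in sort 2 and Ftl1 with 104 RPKM in sort 1 and 49.2 RPKM in sort 2.

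Zinc transporters were present at similar, low levels, with 6 of 24 selected between 2.02 and 4.08 RPKM. Slc30a9 had 4.097 RPKM in sort 1 and 4.07 RPKM in sort 2, and Slc39a7, which releases zinc from the endoplasmic reticulum, had 3.204 RPKM in sort 1 and 2.98 RPKM in sort 2. Slc30a5 and Slc30a7, which fill the secretory pathway, averaged 2.71 ± 0.4996 and 2.37 ± 0.1696 RPKM, and Slc39a13 and Slc39a9 2.24 ± 0.1499 and 2.02 ± 0.0329 RPKM. No member of the 2 zinc families passed 5 RPKM in either sort.

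All 5 genes of family 35 whose symbols the rule covers were selected. Slc35a5 had 4.71 RPKM in sort 1 and 5.66 RPKM in sort 2, and Slc35a3, the carrier of UDP-N-acetylglucosamine, had 3.29 RPKM in sort 1 and 4.72 RPKM in sort 2. Slc35a1, which brings CMP-sialic acid into the Golgi for sialylation, had 3.67 ± 0.494 RPKM, Slc35a4 3.14 ± 0.7905 and the UDP-galactose carrier Slc35a2 1.44 ± 0.162 RPKM. Nucleoside carriers were Slc28a2, a sodium-coupled transporter of purine nucleosides, with 6.48 RPKM in sort 1 and 7.82 RPKM in sort 2, and the lysosomal Slc29a3 with 2.96 RPKM in sort 1 and 2.94 RPKM in sort 2.

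Choline, amine, lipid and organic ion carriers closed the order. Slc44a2, a choline transporter-like protein, had 14.4 RPKM in sort 1 and 12.3 RPKM in sort 2, and its relative Slc44a1 1.87 ± 0.375 RPKM. Slc27a4, a fatty acid transport protein with acyl-CoA ligase activity, had 7.71 RPKM in sort 1 and 6.53 RPKM in sort 2, Slc10a7 had 1.98 ± 0.0805 RPKM and the joint entry Slc10a3,Ubl4a 2.77 ± 0.402 RPKM. Slc15a4, the lysosomal peptide/histidine transporter needed for signalling by endosomal Toll-like receptors, had 2.35 RPKM in sort 1 and 2.07 RPKM in sort 2. Slc22a15 had 1.76 RPKM in sort 1 and 1.64 RPKM in sort 2 and was the 1 selected gene among 26 of family 22, the transporters of organic ions in kidney and liver, of which 13 had no read.

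Slc18a2, the vesicular monoamine transporter VMAT2, which loads histamine into the granules of basophils and mast cells, had 3.95 RPKM in sort 1 and 5.47 RPKM in sort 2. The list of basophil and mast cell markers summed to 31.2 RPKM in sort 1 and 33.8 RPKM in sort 2. Of its 10 genes, 3 had the higher RPKM in sort 1 and 6 in sort 2, and Tpsb2 had no read. Cpa3 had 6.101 RPKM in sort 1 and 10.1 RPKM in sort 2, Ms4a2 4.83 RPKM in sort 1 and 5.66 RPKM in sort 2 and Mcpt8 3.98 RPKM in sort 1 and 4.29 RPKM in sort 2. Hdc had 8.16 RPKM in sort 1 and 7.601 RPKM in sort 2, Prss34 4.37 RPKM in sort 1 and 2.55 RPKM in sort 2 and Cd200r3 1.21 RPKM in sort 1 and 0.5696 RPKM in sort 2, and Cd200r3 was the 1 gene of the list called different between the sorts. Cma1 had 3 reads, all in sort 2, and Fcer1a had 4 reads in sort 1 and 11 in sort 2. Their part in the level of Slc18a2 was not tested.

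Families 17, 20 and 34, grouped here, hold phosphate importers of the plasma membrane and, in family 17, also vesicular glutamate and nucleotide carriers and a lysosomal sialic acid carrier. None of their 14 genes was selected, and 7 had no read. In family 17, Slc17a9, the vesicular nucleotide carrier, had 1.51 RPKM in sort 1 and 0.717 RPKM in sort 2, and Slc17a5, the sialic acid carrier, had 1.21 RPKM in sort 1 and 0.747 RPKM in sort 2, so that both reached the minimum in sort 1 alone. Slc20a1 and Slc20a2, the phosphate importers found in most cells, had mean levels of 0.7495 ± 0.0174 and 0.826 ± 0.175 RPKM. Xpr1, the phosphate exporter whose symbol lies outside the rule, had 5.77 RPKM in sort 1 and 7.004 RPKM in sort 2. The dicarboxylate and sulphate carriers of family 13, with 5 genes, and the urea and ammonium carriers of families 14 and 42, with 2, had no selected gene either.

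Levels of the selected entries ranked similarly in the 2 sorts, and the rule that chose them asked for the minimum in both. Across the 83 entries, which share both libraries, the Spearman correlation of RPKM between the sorts was 0.909, beside 0.949 over the 7048 expressed genes. The ratio of sort 1 to sort 2, from reads scaled by TMM, lay above 1 for 43 entries and below 1 for 40. The median absolute log2 ratio was 0.25 for the entries and also 0.25 for all expressed genes. A ratio within 1.5-fold was found for 71 entries, and 87.9% of expressed genes had one. Without a fold cut, 48 of the 83 entries had an adjusted p under 0.05 in the exact binomial test described next. The share among expressed genes was 54.2%.

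Slc12a9, a member of the cation-chloride cotransporter family also called CIP1, was the 1 entry called different between the sorts. It had 762 reads in sort 1 and 325 in sort 2, a log2 ratio of 1.16 (2.24-fold higher in sort 1), and an adjusted p of 3.31e-35 in an exact two-sided binomial test of the reads with Benjamini-Hochberg adjustment over 12347 genes, the call also needing a fold of 2. Of the 7048 expressed genes, calls with the higher value in sort 1 made up 1.16% and those with the higher value in sort 2 made up 0.482%. The entries had 1 call of 83 in the first direction and 0 in the second, a share near that background. Over all tested genes, low ones included, 7.86% were called. The test sets 2 libraries against sampling noise and not conditions against each other. For edgeR's exact test the dispersion was estimated from the 2 libraries taken as 1 group. Differences between them thus counted as noise, and this test cannot decide whether the sorts differ. It gave Slc12a9 an adjusted p of 0.538 and called none of the 83, of which 1 had an unadjusted p under 0.05. Slc12a9 was the entry with the smallest adjusted p in that test, and corrected for transcript GC content its log2 ratio was 0.79, below the fold required.

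At a fold of 1.5 in place of 2, 12 entries had an adjusted p under 0.05 in the same exact test, 7 higher in sort 1 and 5 higher in sort 2. Among all 7048 expressed genes, 6.23% passed with the higher value in sort 1 and 5.31% with the higher value in sort 2, so both counts of 83 are near the background. Those higher in sort 1 were Slc2a3 with a log2 ratio of 0.84, Slc40a1 with 0.68, Slc12a9, Slc48a1 with 0.72, Slc38a10 with 0.72, Slc16a3 with 0.93 and Slc25a38 with 0.66. Those higher in sort 2 were Slc38a2 with -0.59, Slc25a46 with -0.68, Slc35a3 with -0.59, Slc25a17 with -0.60 and Slc26a2 with -0.62. GC content of the transcripts was 43.5 to 59.97% in the first set, with a median of 56.1%, and 38.8 to 45.1% in the second, with a median of 43.9%. Slc2a3, at 49.4% GC, and Slc40a1, at 43.5%, were the members of the first set with the lowest GC content.

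Ratios of sort 1 to sort 2 were larger for transcripts rich in GC. Their Spearman correlation with GC percentage was 0.452 across the 83 entries and 0.555 across 6973 expressed genes with a GC value, both being descriptions across genes of the same 2 libraries. After a correction for GC content, 65 of the 83 ratios kept their sign and 18 did not. Of the 12 entries past a fold of 1.5, 4 remained past it with an adjusted p under 0.05 in the exact test, namely Slc40a1 with a corrected log2 ratio of 0.89, Slc2a3 with 0.87, Slc12a9 with 0.79 and Slc16a3 with 0.63, and 8 did not. None of the 5 entries higher in sort 2 was among the 4, and their corrected log2 ratios lay between -0.40 and -0.17. Other entries passed this fold, with an adjusted p under 0.05 in the exact test, only after the correction. Higher in sort 2 among them were Slc11a1 with -0.75, Slc1a5 with -0.68, Slc50a1 with -0.65 and Slc44a1 with -0.60. Higher in sort 1 was Slc25a16 with 0.62. The share of all expressed genes past this fold after the correction is not given here. Nothing is therefore read from how many entries passed after it. Slc48a1 had a corrected log2 ratio of 0.47, and Slc38a10 and Slc25a38 had 0.42 each. GC content had a median of 51.2% in the entries and 49.4% in expressed genes, and transcript length a median of 3330 and 2948 bases.

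**Figure D3:**
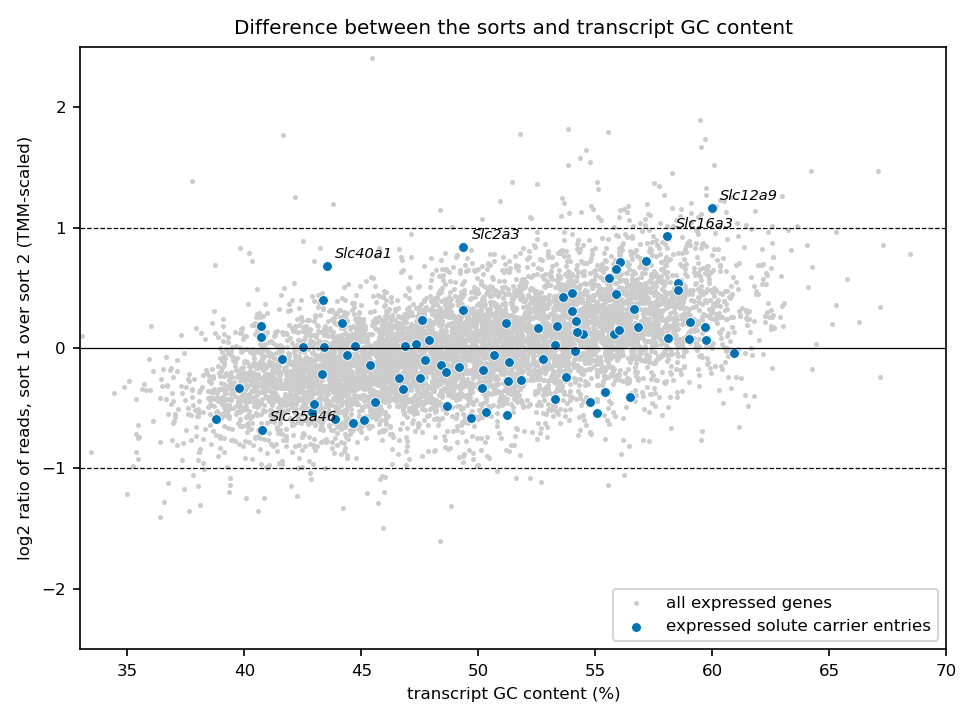
Log2 ratio of TMM-scaled reads, sort 1 over sort 2, against transcript GC content in percent, with 81 of the selected entries in blue over all expressed genes in grey. Dashed lines mark a fold of 2, and 3 of 6973 genes lie outside the axes. Slc12a9 is the 1 blue point beyond the upper line, and the cloud slopes upward.

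Several starts were listed for 10 of the 83 entries, and the tables divide the reads of such a gene among rows that differ in start. For some genes the division was alike in both libraries. Slc43a2 had 100% of its reads in its leading row in sort 1 and 99.2% in sort 2. Slc16a6 and Slc25a14 had all reads in 1 of 2 rows in both sorts, and Slc4a2 had 95.8% of its reads in the row starting at 24427521 on chromosome 5 in sort 1 (95% Wilson interval 92.7 to 97.6) and 95.4% in sort 2 (91.9 to 97.4). The leading row also led in both sorts for Slc16a3 and Slc38a1, with shares that differed more. Slc16a3 had 58.7% and 67.9% in its leading row, and Slc38a1, with 3 rows, 63.2% and 54.5%.

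For other genes the division differed widely between the sorts. Slc3a2 had 581 and 0 reads in its 2 rows in sort 1 and 256 reads in each in sort 2. Slc44a2 had 2019 and 0 reads in sort 1 and 1299 and 426 in sort 2, and Slc41a3 had 517 and 233 reads in sort 1 and 479 and 0 in sort 2. The sources used here do not state how reads were divided among rows, so a share may be an estimate and not a count. Levels of single starts were therefore not compared, and the Wilson intervals do not cover this division.

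**Figure D4:**
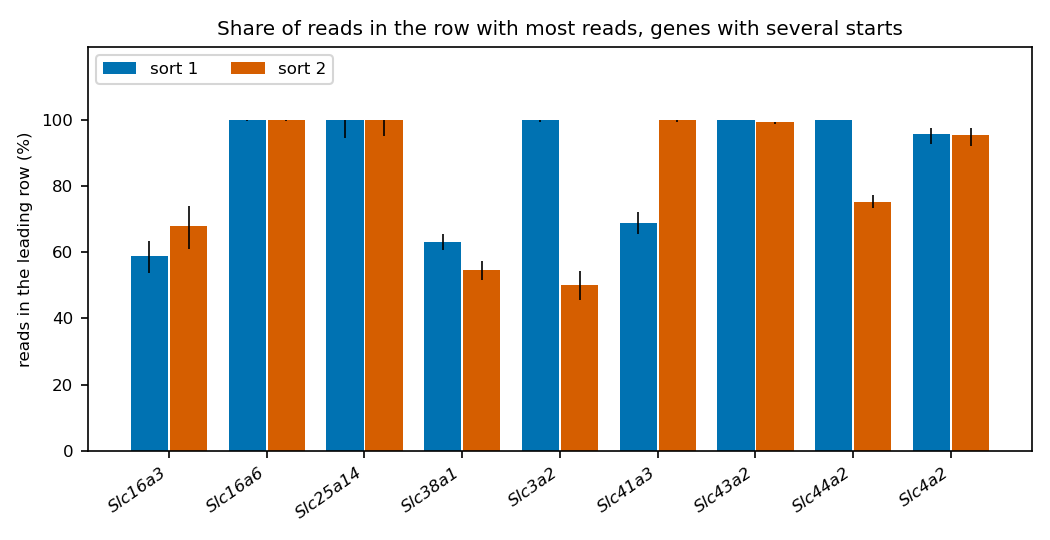
Percentage of a gene's reads in the row with most reads over both sorts, for selected entries with several starts, with sort 1 as the left and sort 2 as the right bar and 95% Wilson intervals. Slc3a2 stands at 100% in sort 1 and 50% in sort 2, and Slc16a6 and Slc25a14 at 100% in both.

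Start windows of 2 genes are shown, Slc43a2, whose reads lay almost wholly in 1 row in both sorts, and Slc44a2, whose division differed between the sorts. Each window holds 250 bases before and 50 after a start and comes from RefSeq on GRCm38.p6, plus strand, with matches to the GC box GGGCGG and to CCAAT on either strand in capitals, overlapping matches each being counted. Slc43a2 had 0 and 3550 reads in the rows of its upstream and downstream start in sort 1 and 23 and 2968 in sort 2, the starts lying 418 bases apart. The windows lie at chr11:75531444-75531743 and chr11:75531862-75532161 for Slc43a2 and at chr9:21320469-21320768 and chr9:21337578-21337877 for Slc44a2.
Slc43a2 upstream start: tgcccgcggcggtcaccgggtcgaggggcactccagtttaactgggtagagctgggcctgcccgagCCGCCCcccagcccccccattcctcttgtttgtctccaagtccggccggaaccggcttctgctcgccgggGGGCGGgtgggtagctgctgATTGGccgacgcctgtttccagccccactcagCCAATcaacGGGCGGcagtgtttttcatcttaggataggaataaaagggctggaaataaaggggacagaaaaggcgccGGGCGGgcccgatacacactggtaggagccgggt
Slc43a2 downstream start: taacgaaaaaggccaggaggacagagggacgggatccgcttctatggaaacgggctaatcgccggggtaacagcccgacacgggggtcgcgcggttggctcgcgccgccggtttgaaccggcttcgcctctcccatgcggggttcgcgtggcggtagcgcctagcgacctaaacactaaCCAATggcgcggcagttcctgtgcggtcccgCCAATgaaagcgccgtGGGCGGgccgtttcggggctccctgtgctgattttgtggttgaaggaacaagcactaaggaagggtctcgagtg
Slc44a2 upstream start: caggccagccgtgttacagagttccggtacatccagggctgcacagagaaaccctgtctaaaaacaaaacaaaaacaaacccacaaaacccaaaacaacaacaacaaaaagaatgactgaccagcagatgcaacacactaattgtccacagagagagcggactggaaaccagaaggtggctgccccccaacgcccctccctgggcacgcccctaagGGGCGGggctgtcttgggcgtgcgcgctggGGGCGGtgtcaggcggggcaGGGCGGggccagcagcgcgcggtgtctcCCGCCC
Slc44a2 downstream start: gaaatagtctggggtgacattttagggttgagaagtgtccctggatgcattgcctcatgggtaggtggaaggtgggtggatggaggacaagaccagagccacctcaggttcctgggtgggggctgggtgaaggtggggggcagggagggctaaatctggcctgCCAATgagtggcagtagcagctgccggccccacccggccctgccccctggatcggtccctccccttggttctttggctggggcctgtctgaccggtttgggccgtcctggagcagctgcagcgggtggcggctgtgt

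The row that took nearly all reads of Slc43a2 begins at the downstream window, which held 33 CpG dinucleotides, 1 GC box and 2 CCAAT matches, beside 22 CpG dinucleotides, 4 GC boxes and 2 CCAAT matches in the upstream one. The upstream window of Slc44a2 held 16 CpG dinucleotides and 4 GC boxes, and the downstream one 7 CpG dinucleotides, no GC box and 1 CCAAT match. Neither TATAAA, nor GAGGAAG as a core of PU.1 sites, nor AGATAA as a GATA site was found in these 4 windows on either strand. Start windows were at hand for 63 of the 83 entries, 70 windows in all, and the GC box stood in 72.9% of them, beside 64.1% of 6839 windows of expressed genes and 35.7% of all 32851 windows. CCAAT stood in 34.3%, 37.1% and 37.4%, TATAAA in 7.14%, 6.81% and 13.6%, GAGGAAG in 8.57%, 14.5% and 13.6%, and AGATAA in 5.71%, 6.24% and 11.2% of the same sets. These matches describe letters only.

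Selected entries were spread over 20 chromosomes. Exons of 5 entries, among them Slc16a6, Slc48a1, Slc35a4 and Slc39a9, overlapped exons of a gene on the opposite strand over 1.06 to 5.35% of their bases, counted on GENCODE M21 transcripts. The libraries were stranded, but the sources used here do not state whether the counting used strand, so reads of these overlaps may belong to either gene. The 4 entries on the X chromosome, Slc25a5, Slc35a2, Slc25a14 and Slc10a3,Ubl4a, had log2 ratios of sort 1 to sort 2 of -0.20, 0.15, -0.25 and -0.36, beside the 47487 and 5 reads of Xist.

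A pair of carriers that the symbol rule does not cover had higher mean levels than any selected entry. Ucp2, an inner membrane carrier of family 25 under another name, had 67.8 RPKM in sort 1 and 52.4 RPKM in sort 2. Slco4c1, an organic anion transporter known from the kidney, had 29.1 RPKM in sort 1 and 45.8 RPKM in sort 2, with the higher value in sort 2, unlike Ucp2. Of 25 measured genes on a list of carriers under other names, 11 reached 1 RPKM in both sorts, among them the sphingosine phosphate transporter relative Spns3 with 16.4 RPKM in sort 1 and 10.3 RPKM in sort 2, Mfsd1 with 5.06 ± 0.564 RPKM, the mitochondrial pyruvate carrier subunit Mpc2 with 3.13 ± 0.627 RPKM, and Unc93b1, which brings Toll-like receptors to endosomes, with 2.99 ± 0.239 RPKM. The second pyruvate carrier subunit, Mpc1, had 0.936 RPKM in sort 1 and 0.641 RPKM in sort 2, under the minimum. Outer membrane channels for metabolites had Vdac2 at 19.4 ± 0.713, Vdac1 at 13.4 ± 0.548 and Vdac3 at 3.03 ± 0.129 RPKM.

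Genes with another letter after the family number, looked at after their values were seen, numbered 26, of which 12 reached 1 RPKM in both sorts. All 12 belong to family 35, led by Slc35c2 with 6.44 RPKM in sort 1 and 3.97 RPKM in sort 2 and Slc35c1, the carrier of GDP-fucose needed for selectin ligands, with 4.66 RPKM in sort 1 and 4.11 RPKM in sort 2. Slc35d1, Slc35e1 and Slc35b3 averaged 3.35 ± 0.145, 3.15 ± 0.408 and 3.03 ± 0.2696 RPKM. With them, 17 genes of family 35 and 95 solute carrier genes in all passed the minimum.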

How the data were processed

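Reads were aligned with STAR 2.4.0c to mm10, per the submitters' processing notes. The authors' deposited tables give 1 row per set of RefSeq transcripts of equal start and end, with its whole-number read count and its RPKM. The reads in the tables are 25.0% and 22.9% of the depth that the RPKM values imply. The counting tool, its strand setting and any filter are unstated in the sources used here. Counts and RPKM were summed per gene symbol. The selected entries, the lists and the tests were chosen with earlier results of these data known. A few genes are not reported here by name. The values of each sort are given for the others among the 25 highest by mean RPKM, for the 2 highest of each substrate class and for called genes. Log2 ratios used TMM scaling (edgeR 4.0.16) and 0.5 added reads. Genes with at least 10 reads over both libraries entered an exact two-sided binomial test in scipy 1.17.1, with Benjamini-Hochberg adjustment across all genes, an adjusted p of 0.05 and a fold of 2. The test was tried on simulated reads with sampling noise alone, which does not show its error rate in these libraries. The quasi-likelihood test of edgeR has no contrast within 1 group, so edgeR's exact test with the common dispersion (biological coefficient of variation 0.232) was an alternative, as were size factors of DESeq2 1.42.0. The GC correction subtracted the median ratio of 20 GC bins of genes with at least 100 reads, interpolated between bins, with GENCODE M21 transcripts matched by accession (22782 genes). Protein properties were not analysed here.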

Additional observations from a re-analysis of the deposited data

How the results depend on the processing

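The number of selected entries depended on the minimum. It was 114 in 38 families at an RPKM of 0.5 and 60 in 29 families at 2, 171 at a CPM of 1 and 145 with RPKM rescaled to each table's own reads, and all 83 were among the 114, the 171 and the 145. The median RPKM was 3.14, and 2.41, 4.21 and 6.83 at the minimum of 0.5, at that of 2 and after rescaling. From 1 sort alone 86 to 92 entries in 32 to 35 families passed, with medians of 2.96 to 3.14 RPKM. Taking the highest row of a gene or joint names gave 83, and, added after the data were seen, any letter after the number gave 95 and single transporter symbols 78. The 1 call among the entries was also made with DESeq2 size factors, total counts, no filter or a filter of 50 reads. At a fold of 1.5 it was 12, and it was 0 with edgeR's exact test and 0 after GC correction. For all genes the 970 calls became 514 with 50 reads, where fewer genes were tested, 2173 at a fold of 1.5 and 33 with edgeR's exact test. Calls need both libraries, so none was made without a sort. No paired analysis was possible because there is 1 group. Of the entries not selected, 177 had reads, and the part of sequencing depth in their values was not tested.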
